A study of Mus musculus with 30 samples.

Results

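Mouse embryonic stem cells (mESCs) derived from a second *Rnf12*+/- founder line were compared with mESCs derived from a first one. The second founder is represented by deletion lines I-TEL and J with 2 clones each, and the first by deletion lines A, B, AB and C-G with 1 clone each and C, D, F, H, I and K with 2 clones each. This gave 4 libraries against 16, out of 30 in the series, all 20 of them bulk RNA-seq libraries that the labels place in 1 library series. The table held 50970 autosomal genes, of which 15356 had enough counts to be tested. The question addressed here was how far the autosomal transcriptomes of the founders differed, since both were used as starting points for deletions of the X chromosome.

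All cells were F1 hybrid female mESCs of the strain combination 129/Sv x Cast/Ei, so that autosomal reads over a strain difference could be assigned to the *Mus* (129/Sv) or *Cast* (Cast/Ei) allele. All carried a heterozygous deletion of *Rnf12* (*Rlim*) on the *Mus* X chromosome, a heterozygous deletion of 1 X-linked segment and the neomycin cassette used to select for it. The first founder was made by electroporation with guides against intron 2 and the end of *Rnf12*, and the second by lipofection with other guides, which was used after attempts at deletion J in the first founder failed. I-TEL removes the segment from region I to the telomere and J the segment J. Region J was therefore deleted in all 4 second-founder libraries and in no first-founder library, so that the founder, its guides and the loss of region J cannot be told apart. Each founder is a single cell line, and clones of 1 deletion line share their history (correlation between clones 0.53), so that p-values over libraries measure the spread between these clones. Cells were grown with serum and LIF on feeder fibroblasts, which were depleted by pre-plating before lysis.

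Founder lines of mESCs are known to drift in culture. They can gain or lose chromosome segments, erase or gain DNA methylation at imprinted genes, and differ in how many cells pass through a transient state in which genes of the 2-cell embryo (2C genes) are transcribed. Naive mESCs are marked by the transcription factors *Pou5f1*, *Nanog*, *Esrrb* and *Zfp42*, while *T* and *Lhx1* mark mesendoderm and *Hnf4a* and *Dab2* mark primitive endoderm. In bulk libraries, fewer cells of a state and less RNA per cell cannot be told apart.

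Depth was alike, at 9634385 to 10513479 counts per library in the second founder and 8816184 to 10680026 in the first. Between 12.18 and 12.65% of the counts could be given an allele. Values of single genes are given as TPM, which are counts scaled for transcript length and library total, with the mean ± SD over libraries where no single values are given, and fold changes are those of the second over the first founder from edgeR's quasi-likelihood test, with p-values adjusted over every gene fitted (Benjamini-Hochberg). Within the first founder, 2 libraries stood apart from the others in chromosome-wide values. Deletion I clone 1 had a raised level of chromosomes 1 and 14 and a *Mus* share of 68.0% and 65.5% on them, and Deletion F clone 2 had a raised level of most of chromosome 8. Leaving out these 2 libraries was an alternative added after seeing the data, and the numbers of calls without them are given for the regions and for the gene lists where they moved most.

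*Rlim*, the E3 ubiquitin ligase gene targeted in both founders (chrX:103957163-103981284), was measured first. It stood at 64.0 and 72.8 TPM in the clones of I-TEL and at 59.8 and 70.9 TPM in those of J, against 50.4 TPM at the lowest, 73.8 at the median and 144 at the highest in the first founder. The second-founder values lay inside the range of the first. The log2 fold change was -0.28 (SE 0.19, adjusted p = 0.331). In another library series, XX wild-type cells had 211 and 193 TPM. Pluripotency factors were present in both founders. *Pou5f1* reached 1717 ± 92.0 TPM (SD, n = 4) in the second and 1929 ± 180 TPM (SD, n = 16) in the first founder (log2 fold change -0.21, adjusted p = 0.0721 by edgeR). *Nanog* reached 748 ± 71.8 against 757 ± 69.6 TPM (adjusted p = 0.689) and *Esrrb* 812 ± 35.9 against 809 ± 157 TPM (adjusted p = 0.894).

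Outside chromosomes 8 and 12, a sizeable minority of genes differed between the founders. Of 13910 genes tested, 1015 were higher (7.3% of those tested) and 1136 lower (8.17%) in the second founder at an adjusted p under 0.05 in edgeR, 2151 in all (15.5%). The median log2 fold change over all genes tested was -0.02. Called genes had a median log2 fold change of 0.71 where higher and -0.65 where lower, and 607 differed by at least a log2 of 1, 306 upwards and 301 downwards. For 420 genes (3.02%) all 4 second-founder libraries lay above all 16 of the first, and for 173 (1.24%) all 4 lay below. Of these 593 genes (4.26%), 571 were also called. Without Deletion I clone 1 and Deletion F clone 2 the number of calls was 2407.

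The number of calls depended on how clones were treated. With counts summed by line, which sets 2 lines against 10, 625 genes were called, 320 higher and 305 lower, and 614 of these were among the 2151. A fit by limma voom with line as a random block called 808, 477 higher and 331 lower, all of them among the 2151. I-TEL alone against the first founder gave 446 calls and J alone 769, with 279 in common, which is 62.6% of the first set and 36.3% of the second. These fits share the 16 first-founder libraries. Leaving out Deletion J clone 1 lowered the count to 1158, 592 higher and 566 lower.

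**Figure D1:**
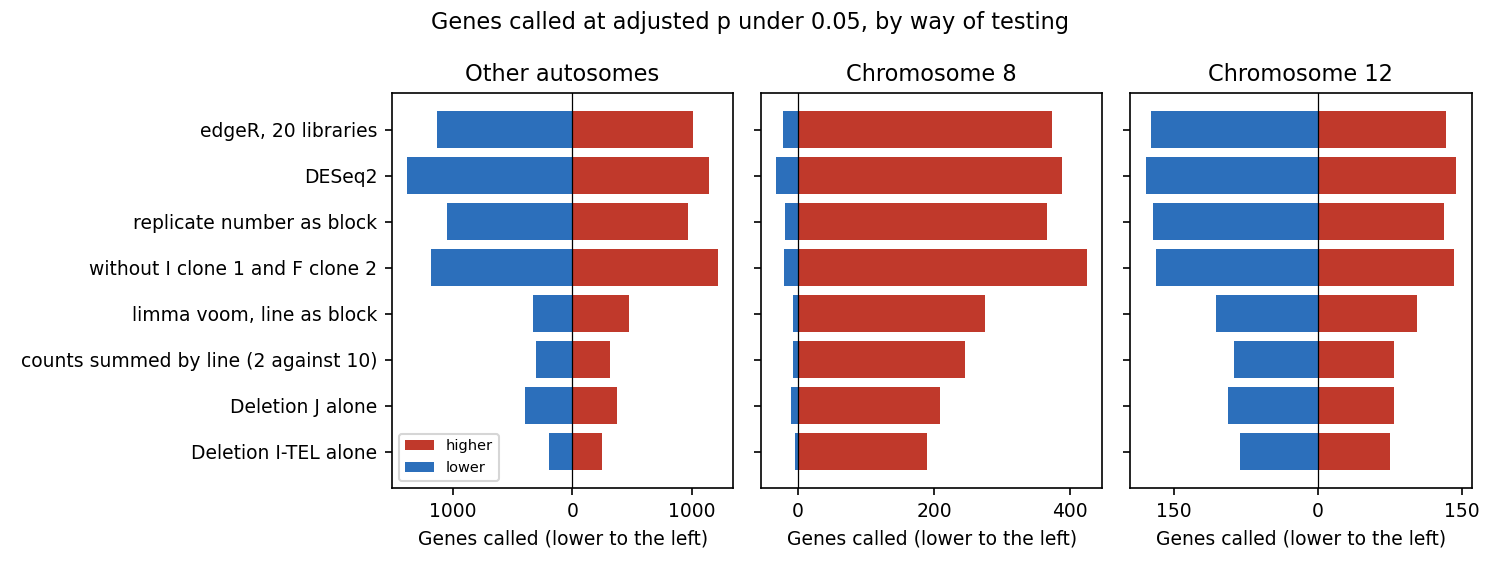
Genes called at an adjusted p under 0.05 (horizontal axis, number of genes, lower to the left and higher to the right) for 8 ways of testing (rows), on the other autosomes, chromosome 8 and chromosome 12. On the other autosomes the bars shrink from 1015 and 1136 genes over 20 libraries to 320 and 305 when counts are summed by line, while on chromosome 8 nearly all calls stay on the higher side.

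The largest rises outside chromosomes 8 and 12 belonged to *Pramel6* and *Pramel7*, neighbouring PRAME-like genes on opposite strands of chromosome 2. *Pramel7* is known as a gene of the inner cell mass whose product promotes the turnover of UHRF1, a factor that maintains DNA methylation. Their upstream sequences are shown because these genes gave the largest fold changes, beside those of *Zfp352*, a 2C gene that rose, and of *Phlda2*, an imprinted gene that fell. Each run holds the 250 bases before the RefSeq start (GRCm38.p6), read 5′ to 3′ on the gene's strand, with CG dinucleotides in capitals.

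*Pramel6*, chr2:87506315-87506564, + strand: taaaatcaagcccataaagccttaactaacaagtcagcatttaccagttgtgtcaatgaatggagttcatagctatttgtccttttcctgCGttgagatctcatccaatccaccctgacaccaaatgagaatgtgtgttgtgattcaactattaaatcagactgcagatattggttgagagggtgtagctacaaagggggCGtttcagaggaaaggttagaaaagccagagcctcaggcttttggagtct
*Pramel7*, chr2:87492419-87492668, - strand: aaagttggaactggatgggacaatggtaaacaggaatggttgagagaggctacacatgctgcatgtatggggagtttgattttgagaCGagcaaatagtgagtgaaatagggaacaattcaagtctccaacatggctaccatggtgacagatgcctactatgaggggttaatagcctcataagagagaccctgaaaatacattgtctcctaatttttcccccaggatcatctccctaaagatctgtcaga
*Zfp352*, chr4:90218570-90218819, + strand: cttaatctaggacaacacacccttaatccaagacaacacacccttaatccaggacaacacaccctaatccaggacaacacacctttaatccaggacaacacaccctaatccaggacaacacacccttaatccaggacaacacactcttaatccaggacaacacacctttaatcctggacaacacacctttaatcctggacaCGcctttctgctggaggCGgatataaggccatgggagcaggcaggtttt
*Phlda2*, chr7:143502525-143502774, - strand: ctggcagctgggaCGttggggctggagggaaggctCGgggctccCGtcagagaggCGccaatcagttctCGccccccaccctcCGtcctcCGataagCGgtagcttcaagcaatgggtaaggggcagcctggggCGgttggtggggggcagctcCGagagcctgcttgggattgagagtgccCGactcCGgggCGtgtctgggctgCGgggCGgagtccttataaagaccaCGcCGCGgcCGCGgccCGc

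CG dinucleotides are the sites at which mammalian DNA is methylated. *Pramel6* and *Zfp352* had 2 of them in this window and *Pramel7* had 1, against a median of 6 over 27025 promoters of the same length, of which 29.6% hold 2 or fewer and 19.4% hold 1 or none. *Phlda2* had 21, and 16.1% of promoters hold as many or more. Methylation was not measured in these cells, and these counts describe the sequence alone.

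*Pramel6* stood at 7.67, 7.28, 10.7 and 7.56 TPM in I-TEL clones 1 and 2 and J clones 1 and 2, while in the first founder it ranged from 0 through a median of 0.304 to 0.484 TPM. Its log2 fold change was 4.94 (SE 0.28). *Pramel7* stood at 18.4, 21.0, 22.8 and 17.3 TPM against 0, 0.673 and 1.75 TPM at the lowest, median and highest (log2 fold change 4.52, SE 0.33). For both genes the groups were separated by a wide gap, and a gene listed at 0 had no count in that library. Both genes passed the filter (at least 10 counts in 4 libraries) only through the second founder, where they are high. Nothing is read from their calls. In the other library series, XX wild-type cells had 27.8 and 11.3 TPM of *Pramel7* and XX *Rnf12*+/- cells 4.44 and 1.604 TPM.

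Several of the other genes with large rises are predicted genes or have close copies that can share reads, so that the value of a single copy is uncertain. *Tcstv3* on chromosome 13, which is known to act at telomeres in 2C-like cells, had 5.98, 6.06, 6.69 and 7.84 TPM against 0, 0.432 and 1.20 TPM (log2 fold change 3.56, SE 0.38). Its neighbour *BC147527* rose by a log2 of 4.27 and *Gm21761*, on the same chromosome, by 3.03. The rises of *Gm4778* (3.46), *Gm13128* (3.22), *Pramef17* (3.10) and *Gm4340* (2.91) were of the same order. Among the others, *Dnajc5g*, which encodes a DnaJ co-chaperone, rose by 3.37 and the antisense transcript *1700042O10Rik* by 2.82. In all 12 genes each second-founder library lay above each first-founder library, as the rule for naming them required. Among them *Gm21761* and *P4ha3* alone would have passed the filter on low counts without the second founder. The others passed only through the second founder, where they are high, so that nothing is read from their calls.

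*P4ha3*, which encodes a catalytic subunit of collagen prolyl 4-hydroxylase, was the most abundant of the genes with a large rise. It stood at 243 and 217 TPM in the clones of I-TEL and at 114 and 123 TPM in those of J, against 4.31, 18.3 and 56.6 TPM in the first founder (log2 fold change 2.88, SE 0.40, adjusted p = 1.967e-05 by edgeR). The level in I-TEL was higher than that in J in both clones. Nearly all its allelic reads came from the *Cast* allele, with a *Mus* share of 0.562% over 1601 allelic counts in the second founder and 2.54% over 868 in the first.

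The largest fall was that of *Lypd2*. This gene, which encodes a Ly6 family protein, had 4.41, 1.49, 4.60 and 4.74 TPM in the second founder and 11.9, 24.3 and 46.7 TPM in the first (log2 fold change -2.77, SE 0.33, adjusted p = 3.659e-06 by edgeR). *Cbr3*, a carbonyl reductase gene, had between 11.08 and 16.41 TPM against 43.4, 63.0 and 106 TPM (log2 fold change -2.33, SE 0.24, adjusted p = 5.927e-07). For both genes the highest library of the second founder stayed below the lowest of the first by more than a factor of 2. *Phlda2*, an imprinted restrictor of placental growth, had 16.0, 11.1, 14.3 and 10.3 TPM against 31.5, 43.8 and 83.4 TPM (log2 fold change -2.05, SE 0.29, adjusted p = 2.579e-05).

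The other genes with large falls fell by a log2 of 1.65 to 2.45. Among them were the transcription factor genes *Dlx3* (log2 fold change -2.45), a homeobox gene, *Tcfl5* (-2.01), a bHLH gene of the germline, and *Bhlhe41* (-1.65), a bHLH repressor of the circadian clock. The others were *Cacna1b* (-2.02), a subunit of N-type calcium channels, *Cplx1* (-1.78), a complexin of synaptic vesicles, *Actn3* (-1.79), an actinin, and *Mapk12* (-1.84), the p38 gamma kinase. *Ccdc92b* and *Calml4* both fell by 2.06. Of these 24 genes, all kept their call and direction without any 1 library, in DESeq2 and in limma voom with line as a block, and the 19 that could be fitted with counts summed by line kept it there too. The 24 genes were named because they were called and did not overlap in these same counts. Keeping the call is therefore not read as support for any of them. This holds also for the rises that passed the filter only through the second founder.

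**Figure D2:**
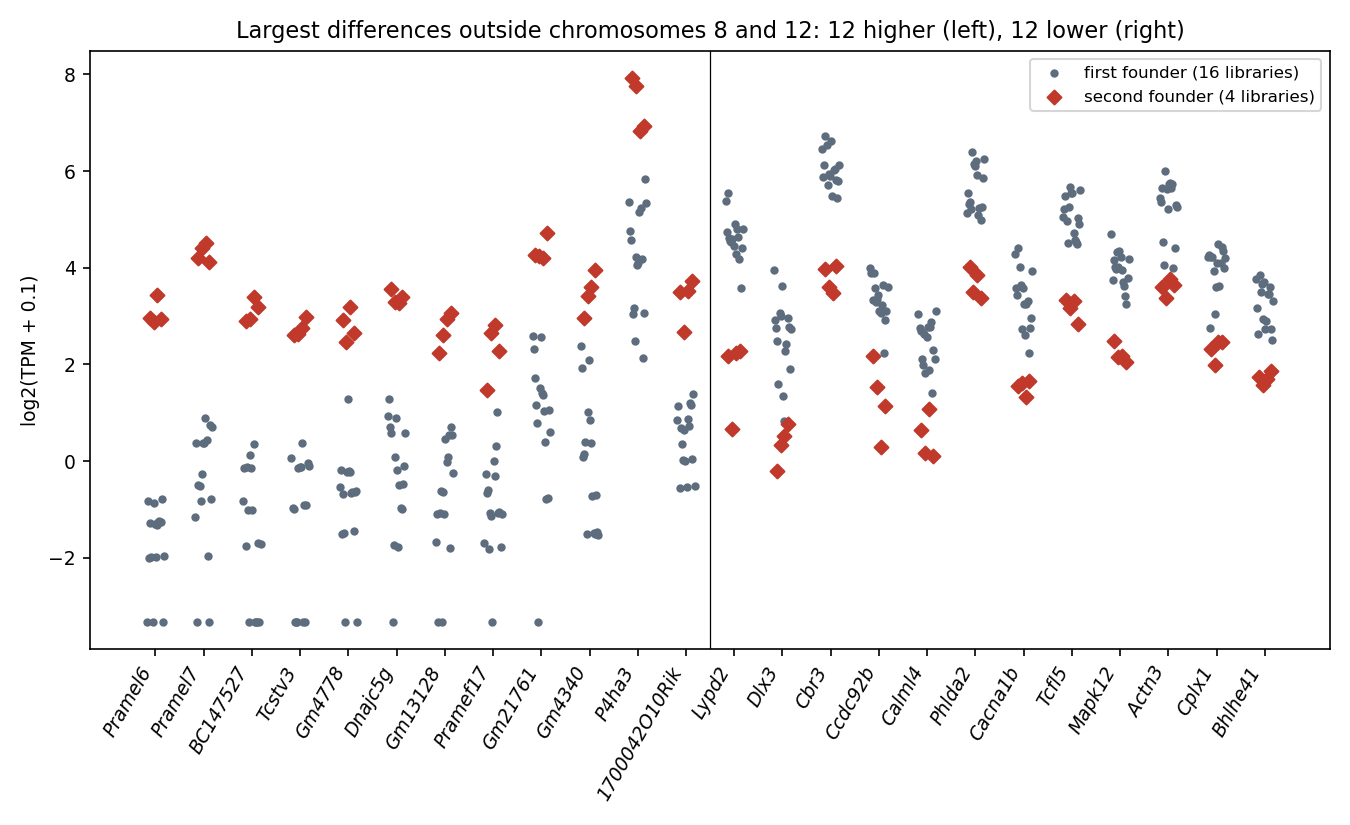
log2(TPM + 0.1) (vertical axis) of the 24 genes with the largest differences outside chromosomes 8 and 12, with 1 point per library, diamonds for the second founder and dots for the first. All diamonds lie above all dots for the 12 genes on the left and below them for the 12 on the right, and the lowest row of dots marks libraries with no count.

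Genes of the 2C-like state were higher in the second founder. All 20 members of the list had the higher mean there, and for 10 the libraries did not overlap. Of the 20 members, 13 had too few counts to be tested. The 3.02% of genes that lay wholly above on the other autosomes covers tested genes only, so it is not a like share. No share over genes of such low counts was taken, and nothing is read from these numbers of members. Several members belong to families of close copies that can share reads, so that they are not independent. Of the 7 members that passed the filter on low counts, *Zscan4d*, *Zfp352* and *Tcstv3* passed only through the second founder, where they are high, so that nothing is read from their calls. The other 4 would have passed in the first founder alone and were called higher, as were 7.3% of all genes tested on the other autosomes. *Zscan4a*, a zinc finger gene of 2C-like cells, stood at 4.93 ± 0.910 against 0.903 ± 0.753 TPM (log2 fold change 2.38). *Usp17lc*, a deubiquitinase gene of a multicopy family, stood at 8.42, 5.36, 8.07 and 8.52 TPM against 0.135, 1.09 and 2.88 TPM (log2 fold change 2.68). The summed TPM of the 20 members was 51.5, 49.2, 56.8 and 75.6 in the second founder against 1.86, 11.4 and 25.5 in the first, so that the groups did not overlap.

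Markers of differentiating lineages moved in part. The shares to set beside their calls are 7.3% higher and 8.17% lower over all genes of the other autosomes. Of 10 tested mesendoderm genes, 7 would have passed the filter in the first founder alone, and among these *T*, *Eomes* and *Gsc* were called higher and none lower. *T*, which encodes brachyury, stood at 8.05, 13.1, 11.1 and 12.9 TPM against 3.05, 4.75 and 13.3 TPM (log2 fold change 1.05), and *Lhx1*, a homeobox gene, at 1.23, 2.15, 2.05 and 2.84 against 0, 0.234 and 1.38 TPM (2.52). The groups overlapped for every member of this list. *Lhx1*, *Foxa2* and *Cer1* passed only through the second founder, where they are high. With counts summed by line no member that would have passed in the first founder alone was called, and with limma voom and line as a block *T* was. Of 17 primitive endoderm genes, 5 were called higher and 1 lower. *Hnf4a*, a nuclear receptor gene, was at 2.95 ± 0.282 against 0.808 ± 0.400 TPM (log2 fold change 1.81), and *Dab2*, an endocytic adaptor gene, at 13.3 ± 1.74 against 7.12 ± 0.969 TPM (0.86). Both kept their call with counts summed by line.

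Feeder fibroblast genes were also higher in the second founder. Of 22 tested markers 7 were called higher and none lower (median log2 fold change 0.76), among them *Lum*, *Col3a1*, *Prrx1* and *Cdh11*, the last of which lies on chromosome 8. The summed TPM of the 23 markers was 399, 656, 694 and 529 in the second founder against 203, 287 and 663 in the first, so that the groups overlapped, and at most 1 marker was at 0 in any library. With counts summed by line 5 markers were called higher, *Cdh11* among them, beside 320 of 14659 genes of the other autosomes. The part of feeder RNA in the differences of other genes was not tested. *Hoxd13* was called higher among 4 tested Hox genes, with a log2 fold change of 1.00. It stood at 1.61 TPM in I-TEL clone 1, where the feeder sum was lowest, and at 5.16, 6.72 and 3.76 TPM in the other second-founder libraries. Its call was lost without J clone 1 (adjusted p = 0.205 by edgeR), without I-TEL clone 2, with counts summed by line (adjusted p = 0.0964) and with limma voom and line as a block (adjusted p = 0.230).

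**Figure D3:**
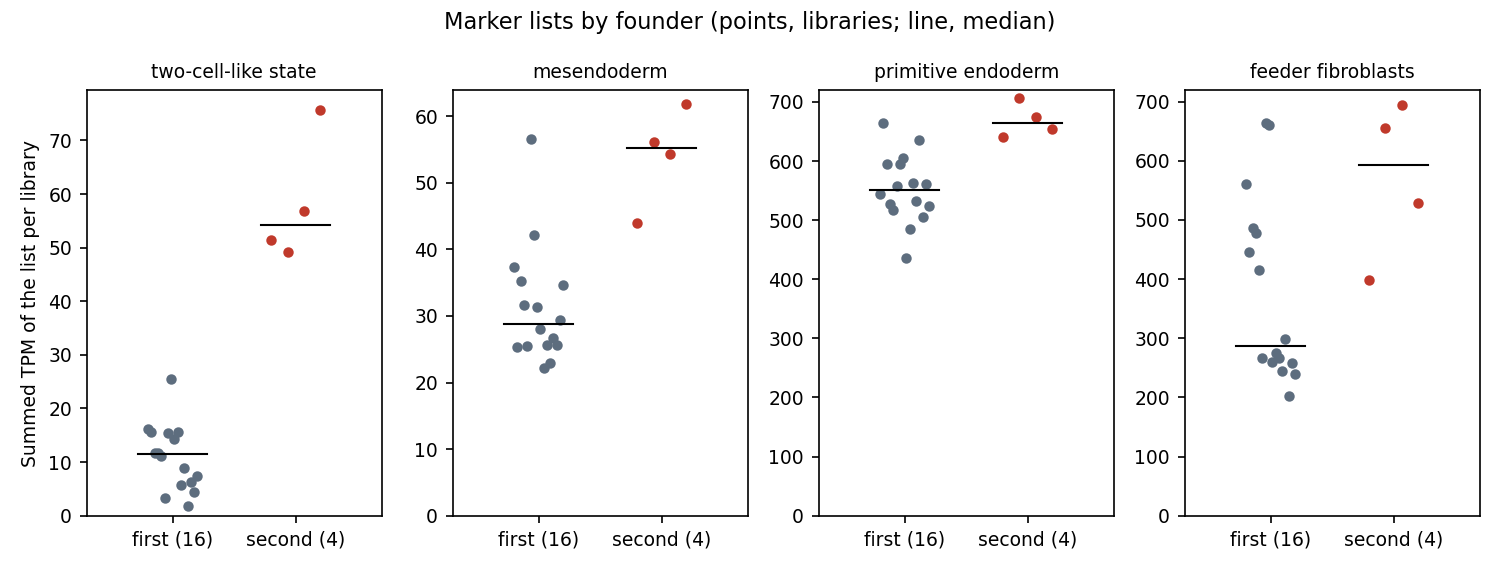
Summed TPM (vertical axes, starting at 0) of 4 marker lists per library (points), with the median of each founder as a line. For the 2C-like list all 4 second-founder libraries, at 49.2 to 75.6, lie above all 16 of the first, at 1.86 to 25.5, while the mesendoderm, primitive endoderm and feeder sums overlap between the founders.

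The core and naive pluripotency lists held calls in shares near the 15.5% of all genes of the other autosomes. No core factor was called higher and 2 of 11 were called lower, *Utf1* (log2 fold change -0.42) and *Fgf4* (-0.33), neither of them with counts summed by line. Of 17 naive genes, *Dppa5a*, which encodes an RNA-binding protein of mESCs, fell from 4526, 6325 and 9132 TPM (lowest, median and highest) in the first founder to 3897, 3238, 3648 and 3844 TPM in the second (log2 fold change -0.90, SE 0.14, adjusted p = 8.248e-05 by edgeR). *Klf4* fell by a log2 of 0.62. *Zfp42* rose by 0.34 and lies on the part of chromosome 8 described further on. Of 14 formative and primed genes, *Sfrp2*, a secreted Wnt antagonist, fell by 1.26, *Lef1* by 1.28 and *Pou3f1* by 1.13, and *Cdh2* rose by 0.82. Of 7 neural genes *Sox11*, which lies on chromosome 12, was called and fell by 1.07. The calls of *Utf1*, *Fgf4* and *Zfp42* were lost without any 1 of I-TEL clone 2, J clone 1 and J clone 2, that of *Lef1* without either clone of I-TEL and that of *Pou3f1* without I-TEL clone 2. With limma voom and line as a block, and with counts summed by line, *Sfrp2* alone of the formative and primed list was called (adjusted p of *Lef1* 0.131 and of *Pou3f1* 0.107 by limma voom). In that list 1 gene was higher and 5 were lower without Deletion I clone 1 and Deletion F clone 2.

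Imprinted genes, which are transcribed from 1 parental allele, differed in both directions. Of 51 tested, 6 were higher and 6 lower, with a median log2 fold change of 0.00. Outside chromosomes 8 and 12 these were 4 and 6 of 46, beside 7.3% and 8.17% of all genes there. The falls included *Phlda2*, *Cdkn1c*, *Slc22a18* and *Ascl2*, which lie together on chromosome 7, and *Peg3* on the same chromosome and *Igf2r* on chromosome 17. *Cdkn1c*, an inhibitor of cyclin-dependent kinases, stood at 4.67 ± 0.882 against 11.8 ± 4.34 TPM (log2 fold change -1.38). *Ddc*, which encodes DOPA decarboxylase, stood at 27.8, 33.3, 39.3 and 41.4 TPM against 5.038, 9.311 and 11.98 TPM (log2 fold change 1.96, SE 0.16, adjusted p = 2.695e-08 by edgeR). *Plagl1*, an imprinted zinc finger gene, stood at 15.8, 19.4, 16.8 and 17.1 TPM against 2.92, 5.45 and 9.32 TPM (log2 fold change 1.58, SE 0.19, adjusted p = 3.654e-06). Both genes were separated between the founders in every library. *1700042O10Rik*, which rose as well, overlaps *Ddc* on the other strand. With counts summed by line 3 imprinted genes were higher and 3 lower, *Ddc*, *Plagl1*, *Phlda2*, *Cdkn1c* and *Peg3* among them.

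The germline and Polycomb lists held more falls than rises in edgeR over libraries, but not with limma voom and line as a block, where the calls were 2 higher and 2 lower and 1 higher and 1 lower. Of all genes of the other autosomes, edgeR called 7.3% higher and 8.17% lower. Of 22 tested germline genes that are sensitive to DNA methylation, 6 were lower and 2 higher (median log2 fold change -0.53). *Sycp3*, a component of the synaptonemal complex, fell by a log2 of 1.42 and *Rnf17*, a Tudor domain gene, by 0.88, while *Hormad1* rose by 1.05 and *Majin* by 1.12. Of the 14 genes of the DNA methylation machinery 0 were called in edgeR and 0 in DESeq2, and 2 had an unadjusted p under 0.05 in edgeR, both lower. Without Deletion I clone 1 and Deletion F clone 2, *Dnmt3a* and *Dnmt3l*, which encode a de novo DNA methyltransferase and its cofactor, were called lower. Of 24 Polycomb genes, 5 were lower, among them *Ezh1* at 21.4 ± 3.53 against 31.6 ± 5.76 TPM (log2 fold change -0.60), and *Bmi1* alone was higher. Of 58 clustered protocadherin genes on chromosome 18, which encode cell adhesion proteins, 10 were tested and 5 called higher, with *Pcdhgc3* at 9.61 ± 1.46 against 5.34 ± 1.02 TPM (0.80). Constant exons are shared among protocadherins of 1 cluster, so their calls are not independent, and 5 of the 10 would not have passed the filter in the first founder alone. Of 357 *Zfp* zinc finger genes tested, 39 were higher and 10 lower, and outside chromosomes 8 and 12 these were 23 and 9 of 327. The share of rises there was near the 7.3% of all genes, and the share of falls was below the 8.17% of all genes.

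Signalling lists held calls in both directions, with 6 of 18 FGF and MAPK, 4 of 12 LIF and STAT3 and 4 of 14 Wnt genes called, beside 15.5% of all genes of the other autosomes. In the FGF and MAPK list *Etv5* fell by a log2 of 0.60 and *Spry1* by 0.67 while *Fos*, which lies on chromosome 12, and *Egr1* rose, 3 each way. In the LIF and STAT3 list *Pim1* (-0.58), *Pim3* (-0.62) and *Klf4* fell and *Lifr* (0.48) rose. At most 2 genes were called in either direction in the Wnt, Nodal and BMP, p53, stress response, cholesterol, glycolysis and glutathione lists. The glutathione list had 3 higher and 4 lower genes, and the cholesterol list 3 and 1, without Deletion I clone 1 and Deletion F clone 2. *Aldh2*, which encodes mitochondrial aldehyde dehydrogenase, had the smallest adjusted p among the members of these lists. It stood at 161.7, 139.2, 125.4 and 141.9 TPM against 176.5, 211.1 and 248.7 TPM (log2 fold change -0.62, SE 0.08, adjusted p = 1.234e-05 by edgeR).

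**Figure D4:**
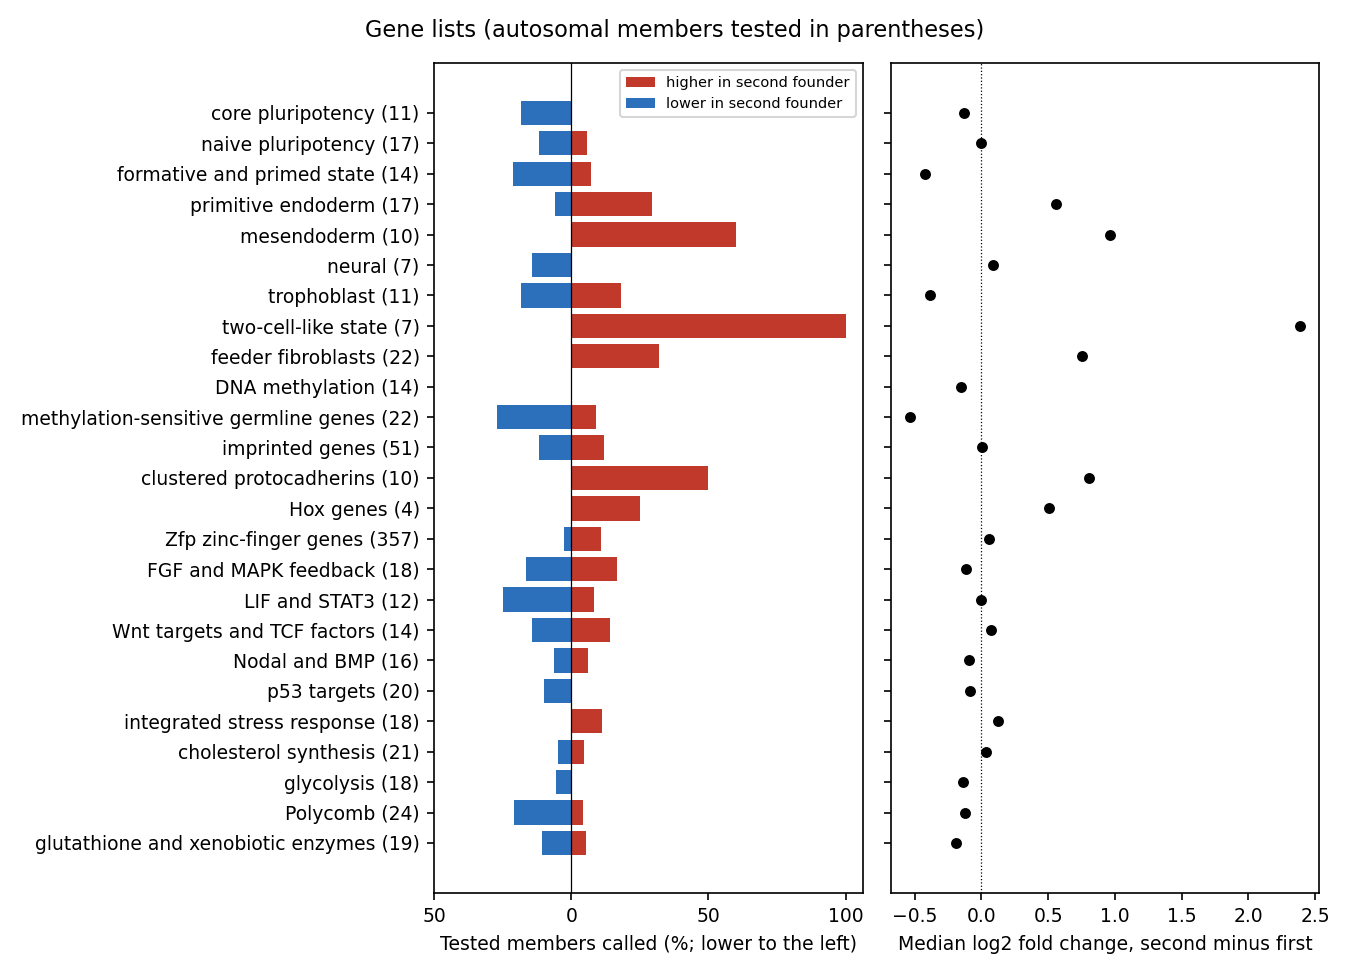
Percent of tested members called higher (right) or lower (left) in the second founder (first panel, horizontal axis) and median log2 fold change of the tested members (second panel) for 25 gene lists (rows, with the number tested). Bars reach to both sides for most lists, as for imprinted genes with 6 higher and 6 lower of 51, and the bars of the 2C-like, mesendoderm and protocadherin lists include members that passed the filter only through the second founder.

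Chromosome 8 was higher over most of its length in the second founder. Of 844 genes tested on it, 373 were higher (44.2%) and 22 lower (2.61%) in edgeR, 46.8% in all. All 4 second-founder libraries lay above all 16 of the first for 178 genes (21.1%) and below them for 5 (0.592%), 21.7% in all. This chromosome and chromosome 12 were set apart because earlier results of these data had shown them to differ. Without Deletion I clone 1 and Deletion F clone 2, 446 genes were called on chromosome 8 and 311 on chromosome 12. The level of the chromosome, taken as the median over genes of log2 CPM (counts scaled to a common total) relative to the gene's mean over the 20 libraries, was 0.34, 0.29, 0.30 and 0.33 in the second founder. In the first it ranged from -0.15 upwards, with the highest value, 0.26, in Deletion F clone 2. The means differed by 0.38, which is given as a description because the chromosome was chosen for its difference. The *Mus* share of allelic counts was 64.9 ± 0.363% in the second founder and 49.3 ± 3.18% in the first. Of 415 genes tested for their allele ratio, 299 (72%) had a higher *Mus* share and none a lower one by edgeR, where 334 had an unadjusted p under 0.05. Without Deletion I clone 1 and Deletion F clone 2 it was 298 with a higher and 1 with a lower share.

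The rise covered the chromosome from about 30 Mb to its end. From 30 to 130 Mb, with 697 genes, the level was 0.35 to 0.39 in the second founder against -0.16 to -0.06 in the first without Deletion F clone 2. With that clone included, the median fold was 1.36 and the *Mus* share was 66.5% against 49.2%. Before 30 Mb, with 147 genes, the level differed by -0.01, with 7 genes called higher and 8 lower, while the *Mus* share was 53.6% against 49.7%. The border was placed after the values were seen. Deletion F clone 2 had a level of 0.33 on the same segment, but with a *Mus* share of 35.5%, in the opposite direction to the second founder. DNA copy number was not measured.

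*Zfp42*, at 43.3 Mb of chromosome 8 (chr8:43295063-43306980), stood at 977, 1066, 1063 and 1057 TPM against 525, 804 and 959 TPM, with a *Mus* share of 66.7% against 50.6%. *Slc7a5*, an amino acid transporter gene, and *Msmo1*, a gene of cholesterol synthesis, rose by a log2 of 0.55 and 0.76 and lie on the same segment, with a *Mus* share of 66.4% and 69.0% in the second founder. The call of *Slc7a5* was lost without J clone 1 and with counts summed by line, and that of *Zfp42* with counts summed by line and with limma voom. *Fgfr1*, at 25.5 Mb and before the border, rose by 0.33 at a *Mus* share of 47.9% against 47.3%. The largest rise on the chromosome was also before the border. *Atp4b*, which encodes a subunit of the gastric proton pump, had 6.18, 10.5, 7.14 and 10.2 TPM against 0, 0.650 and 3.19 TPM (log2 fold change 3.17). On the segment itself, *Gm27167* rose by 3.00 and *Gm19935* by 2.14. *Atp4b*, *Gm27167* and *Gm19935* passed the filter on low counts only through the second founder, where they are high. Nothing is read from their calls. Falls were fewer, with *Rab20* (log2 fold change -1.49), a small GTPase gene, before the border. *Slc5a5* (-0.998), the iodide transporter gene, fell inside the segment, with 4.89, 4.26, 4.27 and 3.73 TPM against 5.63, 8.19 and 11.6 TPM.

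Chromosome 12 differed in both directions. Of 602 genes tested, 134 were higher (22.3%) and 174 lower (28.9%) in the second founder, 51.2% in all. The libraries did not overlap for 92 genes with higher values (15.3%) and for 80 with lower ones (13.3%), 28.6% in all. The *Mus* share of the whole chromosome was 30.6 ± 0.633% in the second founder and 64.0 ± 0.228% in the first, a difference of -33.4 percentage points, again as a description. No other autosome had so large a difference of the share. The level of the whole chromosome differed by -0.05. Of 296 genes tested for their allele ratio, 265 (89.5%) had a lower *Mus* share and none a higher one by edgeR, where 278 had an unadjusted p under 0.05, and 260 were lower without Deletion I clone 1 and Deletion F clone 2.

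The small difference of the whole chromosome was made of opposite ones. Up to 75 Mb, with 284 genes, the level was lower by 0.47, 160 genes were called lower and 2 higher, the median fold was 0.708, and the *Mus* share was 47.0% against 62.9%. From 75 Mb on, with 318 genes, the level was higher by 0.32, 132 genes were called higher and 14 lower, the median fold was 1.24, and the *Mus* share was 25.6% against 64.6%. This border, too, was placed after the values were seen. In the other library series XX wild-type cells had *Mus* shares of 47.2 to 48.6% and 24.7 to 26.6% on these parts, and XX *Rnf12*+/- cells and deletion E, made from the first founder, had 63.2 to 64.1% and 64.5 to 66.2%. The second-founder libraries, at 46.0 to 48.4% and 25.0 to 26.2%, overlapped the former, and those of the first founder, at 62.0 to 63.6% and 64.0 to 65.2%, overlapped the latter. On chromosome 8, the *Mus* share of XX wild type from 30 Mb on was 50.6 to 52.3%, beside 49.5 to 50.7% in the first founder without Deletion F clone 2.

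**Figure D5:**
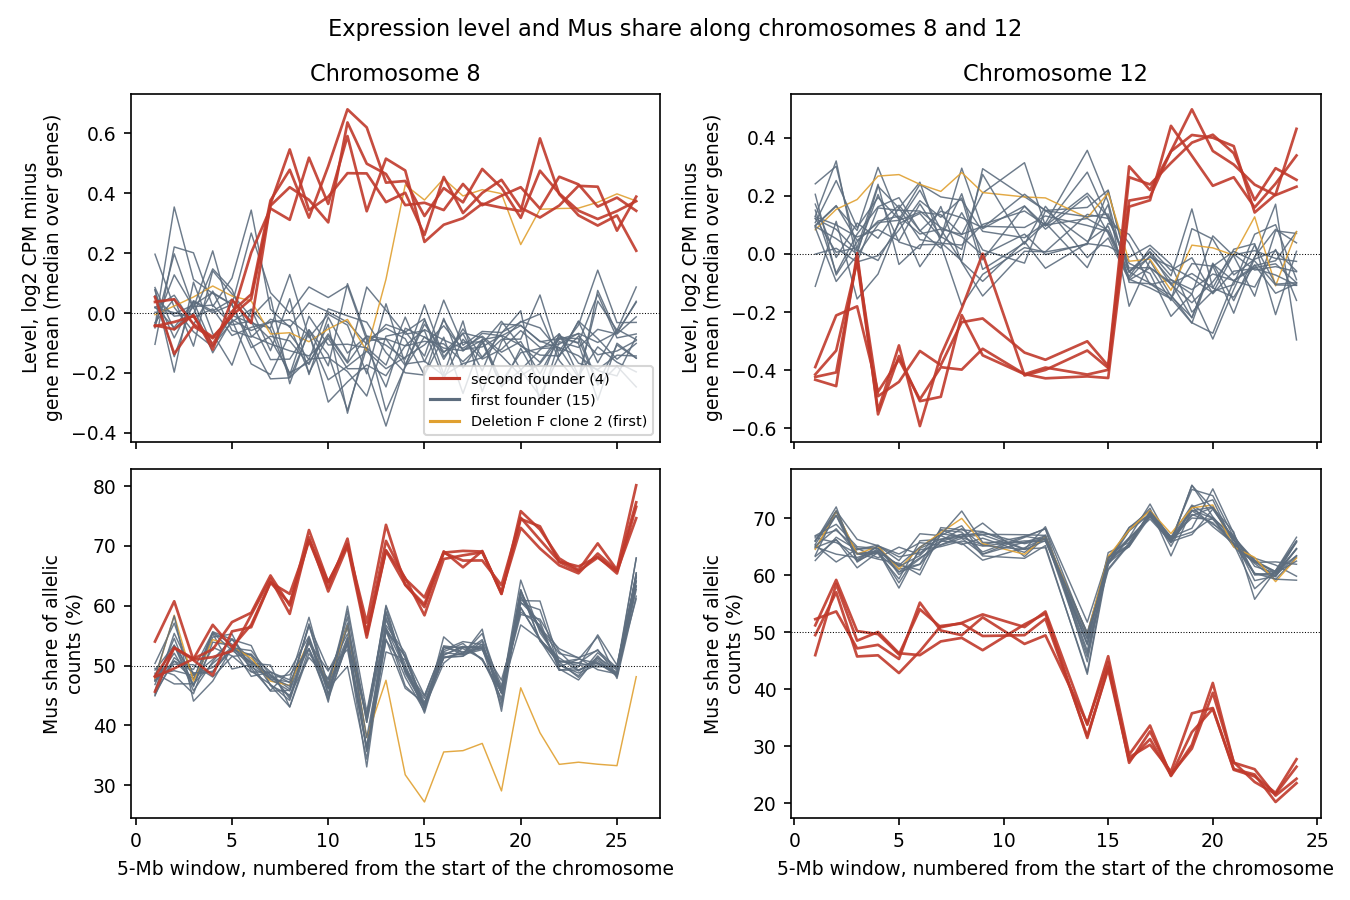
Expression level (upper panels, median over genes of log2 CPM minus the gene's mean) and *Mus* share of allelic counts (lower panels, percent) in windows of 5 Mb along chromosomes 8 and 12 (horizontal axis, window number), with 1 line per library. Second-founder libraries rise on chromosome 8 after window 6 and turn from lower to higher on chromosome 12 after window 15, and Deletion F clone 2 is drawn apart because it rises on part of chromosome 8 with a lower *Mus* share.

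The genes named on chromosome 12 were chosen for their large differences. *Klf11*, a Krüppel-like factor gene at 24.7 Mb, stood at 33.0, 34.1, 30.3 and 29.6 TPM against 45.9, 84.6 and 113 TPM (log2 fold change -1.40). *Matn3*, which encodes a matrilin of cartilage matrix, fell by 1.33 and *Mipol1* by 1.29, both before 75 Mb. The largest rises, all between 87 and 89 Mb, were those of *Gm5039* (log2 fold change 3.66), *Gm16368* (3.66) and *Gm8300* (2.96), which are near-identical copies of 1 gene family, so that their reads cannot be assigned with certainty. *Gm16368* and *Gm8300* passed the filter on low counts only through the second founder, where they are high, so that nothing is read from their calls. *Gm5039* had 21.9, 29.8, 32.8 and 36.4 TPM against 0.534, 2.47 and 4.57 TPM, and XX wild type had 31.5 and 26.1 TPM. *Esrrb*, at 86.4 Mb, did not differ beyond its spread in level but had a *Mus* share of 25.0% against 67.8%.

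The other 17 autosomes differed little as a whole. Their level differed by between -0.06 and 0.05, with adjusted p under 0.05 on chromosomes 6 and 15 in an exact permutation test over libraries (two-sided, adjusted over 19 autosomes). The *Mus* share differed by between -0.656 and 1.47 percentage points, was higher in the second founder on 16 of them and passed the test on 11. No chromosome passed over lines, where the smallest adjusted p was 0.072 for the share. The second-founder shares of chromosome 10 followed the order of the feeder sums. They rose from 52.11% in I-TEL clone 1 (399 TPM) to 53.26% in J clone 1 (694.4 TPM). On chromosome 3 the order differed. XX wild type had 54.06% and 51.43% on chromosome 10 at feeder sums of 1109 and 323 TPM. In the first founder, the clones of deletion D had 51.65% and 51.67% at 663.5 and 659.9 TPM. The part of feeder RNA in these shares was not tested. Between 3.72% and 9.77% of the genes of a chromosome were called higher and between 5.59% and 13.7% lower, the last on chromosome 15. Of 421 windows of 5 Mb with at least 5 genes, 9 had levels that did not overlap between the founders. The *Mus* share did not overlap in 6 of 405 windows with enough allelic counts, and differed there by at most 6.2 percentage points. The end of chromosome 14, from 115 Mb on, had a *Mus* share of 98.6% and a level of -0.82 in I-TEL clone 2 and was near these values, at 98.9% and -0.88, in Deletion F clone 2, so that it divided clones and not founders.

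Few single genes outside chromosomes 8 and 12 were called for a different allele ratio. Of 6466 genes tested, 98 (1.52%) had a higher *Mus* share in the second founder and 35 (0.541%) a lower one by edgeR, 2.06% in all. These were 119 and 49 without Deletion I clone 1 and Deletion F clone 2. Of the 6466 genes, 605 had an unadjusted p under 0.05 by edgeR. Few reads could be assigned to an allele, so that genes without a call are not shown to be unchanged. Among the genes with the largest shifts, *Nrp2*, a neuropilin receptor gene on chromosome 1, had the smallest adjusted p. Its *Mus* share was 27.8, 36.6, 38.3 and 36.3% against 7.84, 13.3 and 31.6% (adjusted p = 1.408e-07), while its level did not pass the test (log2 fold change 0.39, adjusted p = 0.121). *Rfc3*, which encodes a subunit of the clamp loader of DNA replication, had a *Mus* share of 69.6, 74.6, 76.2 and 82.4% against 83.8, 93.7 and 100% (adjusted p = 2.190e-04). Its level rose by a log2 of 0.62, with 48.2 ± 4.41 against 30.4 ± 4.52 TPM.

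The shares of the other genes named for their shift overlapped between the founders. *Man1a*, a mannosidase gene of the Golgi, had a *Mus* share of 87.8% against 65.1%, and *Map1lc3a*, an autophagy gene, 45.2% against 22.4%. *Emp2*, a tetraspan membrane protein gene, had 73.5% against 50.0%. Lower shares were found for *Dact3* (34.6% against 55.5%), a Wnt regulator gene whose level fell by a log2 of 0.96, and *Abcb1b* (55.1% against 66.9%), an efflux pump gene whose level rose by 0.89. *Rell1* (39.1% against 55.7%) and *Crlf3* (48.7% against 60.5%) did not pass the test in level. *Col6a1*, a collagen gene that feeder fibroblasts also express, had a *Mus* share of 55.6, 69.3, 90.4 and 74.8% against 23.4, 48.1 and 91.7% (adjusted p = 0.0488). That share was lowest in I-TEL clone 1 and highest in J clone 1, the libraries with the lowest and the highest feeder sum of the second founder, and the part of feeder RNA in it was not tested. The call of *Col6a1* was lost without any 1 of 13 libraries, with an adjusted p of 0.407 without J clone 1 by edgeR. Without J clone 2 the calls of *Abcb1b*, *Emp2*, *Dact3*, *Rell1* and *Crlf3* were lost as well.

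Libraries of the other library series, which share none with this comparison, were set beside these calls as a description. Of the 1015 genes called higher outside chromosomes 8 and 12, 667 (65.7%) had a higher mean in XX wild type than in XX *Rnf12*+/- and deletion E, against 47.9% of all genes tested. Of the 1136 called lower, 824 (72.5%) were lower in XX wild type, against 52.1% of all. Among called genes whose libraries did not overlap, these were 315 of 398 and 144 of 173. On chromosome 12 it was 126 of 134 higher and 169 of 174 lower genes, and on chromosome 8 it was 208 of 373 higher genes (55.8%). The summed TPM of the 2C-like list was 47.9 and 52.8 in XX wild type, 22.5 and 10.1 in XX *Rnf12*+/- and 30.2 and 44.4 in deletion E. The first 2 values lay beside those of the second founder, and those of deletion E reached above the range of the other first-founder lines. The labels do not say which founder the XX *Rnf12*+/- libraries came from.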

How the data were processed

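The authors deposited 1 table of counts for 30 libraries, with the count of all reads, of *Mus* and of *Cast* reads per gene and no normalization. Per the study's methods, reads were aligned to mm10 masked at strain differences, split by allele with SNPsplit and counted with strand. The submitters' processing notes name Trim Galore 0.6.7, HISAT2 2.2.1, SAMtools 1.10 and HTSeq 0.12.4, whereas the methods name featureCounts. Libraries were grouped by title, and lines by founder from the methods. The members and gene lists were chosen with earlier results of these data known.

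Of 55421 genes, 55154 were matched to GENCODE M21, and the other 267 held at most 0.00401% of counts. Genes with at least 10 counts in 4 of the 20 libraries were fitted with edgeR 4.0.16 in R 4.3.3 (quasi-likelihood, 2 founder groups, TMM factors from autosomes other than 8 and 12), 16026 with the X chromosome. Allele ratios were fitted with a term per library for genes with at least 20 allelic counts in 3 and 12 libraries of the founders. TPM were computed from counts and exon length. Alternatives used DESeq2 1.42.0 and limma 3.58.1, and permutation tests scipy 1.17.1.

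Genes named one by one were *Rlim*, the 12 largest rises and falls outside chromosomes 8 and 12 and the 3 largest on each of these among called protein-coding or lncRNA genes with non-overlapping libraries and at least 5 TPM, the 5 largest shifts of share each way, up to 2 called members per list and 4 pluripotency markers. A gene that this rule names on chromosome 8 is not reported here. Other genes named as list members, and the borders within chromosomes, were chosen with their values in view. On simulated counts, a log2 change of 1 was recovered by edgeR in 93% and one of 2 in 100% of the changed genes, with 8 false calls among 16026 genes. The simulated libraries were drawn independently, without the likeness of clones of 1 line, and only genes with higher counts were changed. These values therefore do not measure how many of the real calls are false.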

Additional observations from a re-analysis of the deposited data

Results flagged for a closer look

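Of 135 groups of 4 second-founder values examined, 6 held a library far from the other 3, and chance flags about 1 in 20 such groups. *Pramel6* was at 10.67 TPM in J clone 1, with the others at 7.28 to 7.67 TPM. *Gm21761* was at 26.22 TPM in J clone 2, against 18.2 to 19.14 TPM in the others. *Lypd2* was at 1.49 TPM in I-TEL clone 2, against 4.41 to 4.74 TPM, and *Usp17lc* at 5.361 TPM in the same clone, against 8.07 to 8.52 TPM. *Zfp42* was at 976.9 TPM in I-TEL clone 1, against 1057 to 1066 TPM. The level of chromosome 6 was 0.1076 in I-TEL clone 2 and 0.0185 to 0.0313 in the others. In 3 of the 6 groups that library was I-TEL clone 2.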

How the results depend on the processing

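Genes called outside chromosomes 8 and 12 numbered 2151, 607 at a log2 fold change of at least 1, 625 with counts summed by line, 808 with limma voom and line as a block, 446 with I-TEL alone and 769 with J alone. On chromosome 8 (395) there were 49 calls at that fold change, 253 by line, 193 with I-TEL and 219 with J alone, and on chromosome 12 (308) 58, 167, 156 and 173, while limma voom stayed within 1.5 times on both. For the allele ratio outside these chromosomes (133), I-TEL alone gave 47 and J alone 69. Without each library in turn the counts were 1158 (without J clone 1) to 2383, 325 to 432 on chromosome 8, 239 to 320 on chromosome 12, and 82 (without J clone 1) to 150 for the allele ratio, with 85 without I-TEL clone 2. Allele calls ranged over 279 to 305 on chromosome 8 and 248 to 265 on chromosome 12. The smaller counts by line, and for I-TEL or J alone, come with fewer samples, and the cause of other shifts was not tested. With line means the level of chromosome 8 differed by 0.3801, and the *Mus* shares of chromosomes 8 and 12 by 15.44 and -33.38. Leaving out each library gave 0.37 to 0.4036, 14.81 to 15.73 and -33.65 to -33.16. The level of chromosome 12 ranged from -0.06909 to -0.03585 and was -0.08521 over protein-coding genes of at least 5 TPM. The Nanog log2 fold change, which was not called, changed sign with J alone (0.04448) and lay between -0.09263 and 0.02356 without each library, above 0 without I-TEL clone 1, and the Esrrb log2 fold change did so with counts summed by line (0.01687), voom (0.01613), I-TEL alone (0.01727), without K, H and I (0.08511) and without I clone 1 and F clone 2 (0.000876). Of 93 named results, 72 kept their call without each library in turn. *Pou5f1* passed the test with TMM factors from all genes (log2 fold change -0.23, adjusted p = 0.0489 by edgeR) and without Deletion C clone 1. The replicate block gave 2015 calls outside chromosomes 8 and 12. Differences between clones 1 and 2 correlated by -0.172 to 0.183 among 28 pairs of lines, -0.172 for I-TEL with J, so that the clone numbers do not pair the samples. DESeq2 (2525), other size factors and filters stayed within 1.5 times. Few reads could be assigned to an allele, and copies of gene families limit the values of the largest rises.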

Other observations

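Imprinted genes with a called allele ratio, chosen with their values in view, had a higher *Mus* share in the second founder in 3 cases outside chromosomes 8 and 12. *H19*, an imprinted non-coding RNA of chromosome 7, had a *Mus* share of 83.8% over 897 allelic counts against 70.2% over 3853 (adjusted p = 6.451e-03 by edgeR). *Igf2r*, whose level fell, had 68.2% against 54.6% (adjusted p = 4.391e-03), and *H13* 60.7% against 47.6% (adjusted p = 0.0207). The ranges of the founders overlapped for all 3. *Meg3*, on the part of chromosome 12 where the *Mus* share was lower throughout, had 20.1% against 46.2%.

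The trophoblast list had 2 genes called higher and 2 lower among 11, beside 7.3% and 8.17% of all genes of the other autosomes. *Gata3*, 1 of the 2 higher genes, passed the filter on low counts only through the second founder, where it is high. Nothing is read from its call. *Gata3* stood at 1.77 ± 0.481 against 0.423 ± 0.321 TPM and *Krt7*, a keratin gene, at 0.933 ± 0.239 against 3.46 ± 1.98 TPM. *Id2*, an inhibitor of bHLH factors on chromosome 12 before 75 Mb, stood at 12.7, 14.7, 13.4 and 11.9 TPM against 14.3, 30.5 and 147 TPM (log2 fold change -1.61, adjusted p = 0.0252 by edgeR), and the groups overlapped. Its call was lost without any 1 of the second-founder libraries.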
